A study of Mus musculus with 11 samples.

Results

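Dendritic cells of MLN and of spleen were compared by the RNA of the T cells they had stimulated. The comparison used 5 of the 11 arrays of the series, chosen by their labels: MLN arrays 2, 3 and 4, and spleen arrays 3 and 4, where each number is the replicate number in the label. In both groups the T cells came from the mouse strain B10.BR, the dendritic cells came from C57BL/6, and the culture lasted 4 days, so the organ that gave the dendritic cells is the only labelled difference. These strains carry different major histocompatibility molecules, so the T cells of every culture met foreign ones, and no T cells without dendritic cells were analysed here. The labels do not spell out MLN and PLN, which commonly stand for the mesenteric and the peripheral lymph nodes. The labels name neither the age of the mice nor how T cells were separated from dendritic cells before total RNA was taken. Nor do they say whether the arrays of an organ are separate cultures or mice, so the spread behind every p-value is that of arrays and can be technical. The other 6 arrays, of B10.BR T cells cultured for 4 days with C57BL/6 dendritic cells of liver or PLN (numbers 2, 3 and 4 of each), served to estimate the spread and as a comparison for the spleen cultures.

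Dendritic cells carry antigen to T cells and also pass on information about the organ they come from. Those of the mesenteric lymph node are known for making retinoic acid from vitamin A, and T cells primed in its presence gain the integrin α4β7 and the chemokine receptor CCR9, which direct them to the gut. T cells on their way to inflamed skin instead make ligands for selectins, adhesion molecules of vessel walls, through sugar-transferring enzymes that include the product of Fut7. Semaphorins and their receptors, the plexins, form a separate contact system that is used both by T cells and by antigen-presenting cells.

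Each array gave 1 intensity per probe set on a linear scale. Median intensities of the 11 arrays ran from 144.3 to 170.4, and 12.9% to 16.5% of probe sets lay below an intensity of 16. Arrays correlated pairwise at 0.965 to 0.984. T cell transcripts were abundant in all cultures. Over the 11 arrays Cd3e, a chain of the T cell receptor complex, ran from 1480.2 to 3680.3, and Cd8a, the co-receptor of cytotoxic T cells, from 2609 to 3683.8. Cd74, the invariant chain of class II molecules and abundant in dendritic cells, lay between 1253.7 and 2188.4. In bulk RNA such as this, fewer cells of a type and less RNA per cell cannot be told apart.

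T cells from MLN cultures differed from those of spleen cultures in 16 of 7436 tested genes (0.215%), of which 13 fell and 3 rose. The genes that fell include Lmna, a lamin of the nuclear envelope, the semaphorin genes Sema4a and Sema4f, the semaphorin receptor Plxnc1, the inflammatory cytokine Il1b and Fut7. Differences among the 16 ran from 0.54 to 1.91 in size on the log2 scale. All 16 had the same direction within number 3 and within number 4, where 55.6% of all tested genes had 1 direction in both. In 13 of the 16 the MLN arrays and the spleen arrays did not overlap, against 6.13% of tested genes with MLN above and 8.66% with MLN below. In 9 of the 16, the MLN arrays also lay beyond all 8 arrays of the other organs, against 1.1% of tested genes. The 16 were selected for a small p on these same arrays, so the same direction and the lack of overlap largely follow from that. Nor is the share beyond all 8 arrays free of that selection. The test was limma on log2(intensity + 16) of quantile-normalized arrays with the replicate number as a block and Benjamini-Hochberg adjustment over all tested genes. A difference on this scale understates the change of genes of low intensity. Without the block 0 genes passed (262, or 3.52%, at an unadjusted p under 0.05, smallest adjusted p = 0.0842), and with the block 1041 (14%) reached an unadjusted p under 0.05, 511 higher and 530 lower. Centring each array on its median in place of quantile normalization turned the split of the calls to 31 higher and 20 lower. The count was 34 without spleen array 3, 10 without MLN array 4 and 8 without spleen array 4.

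**Figure D1:**
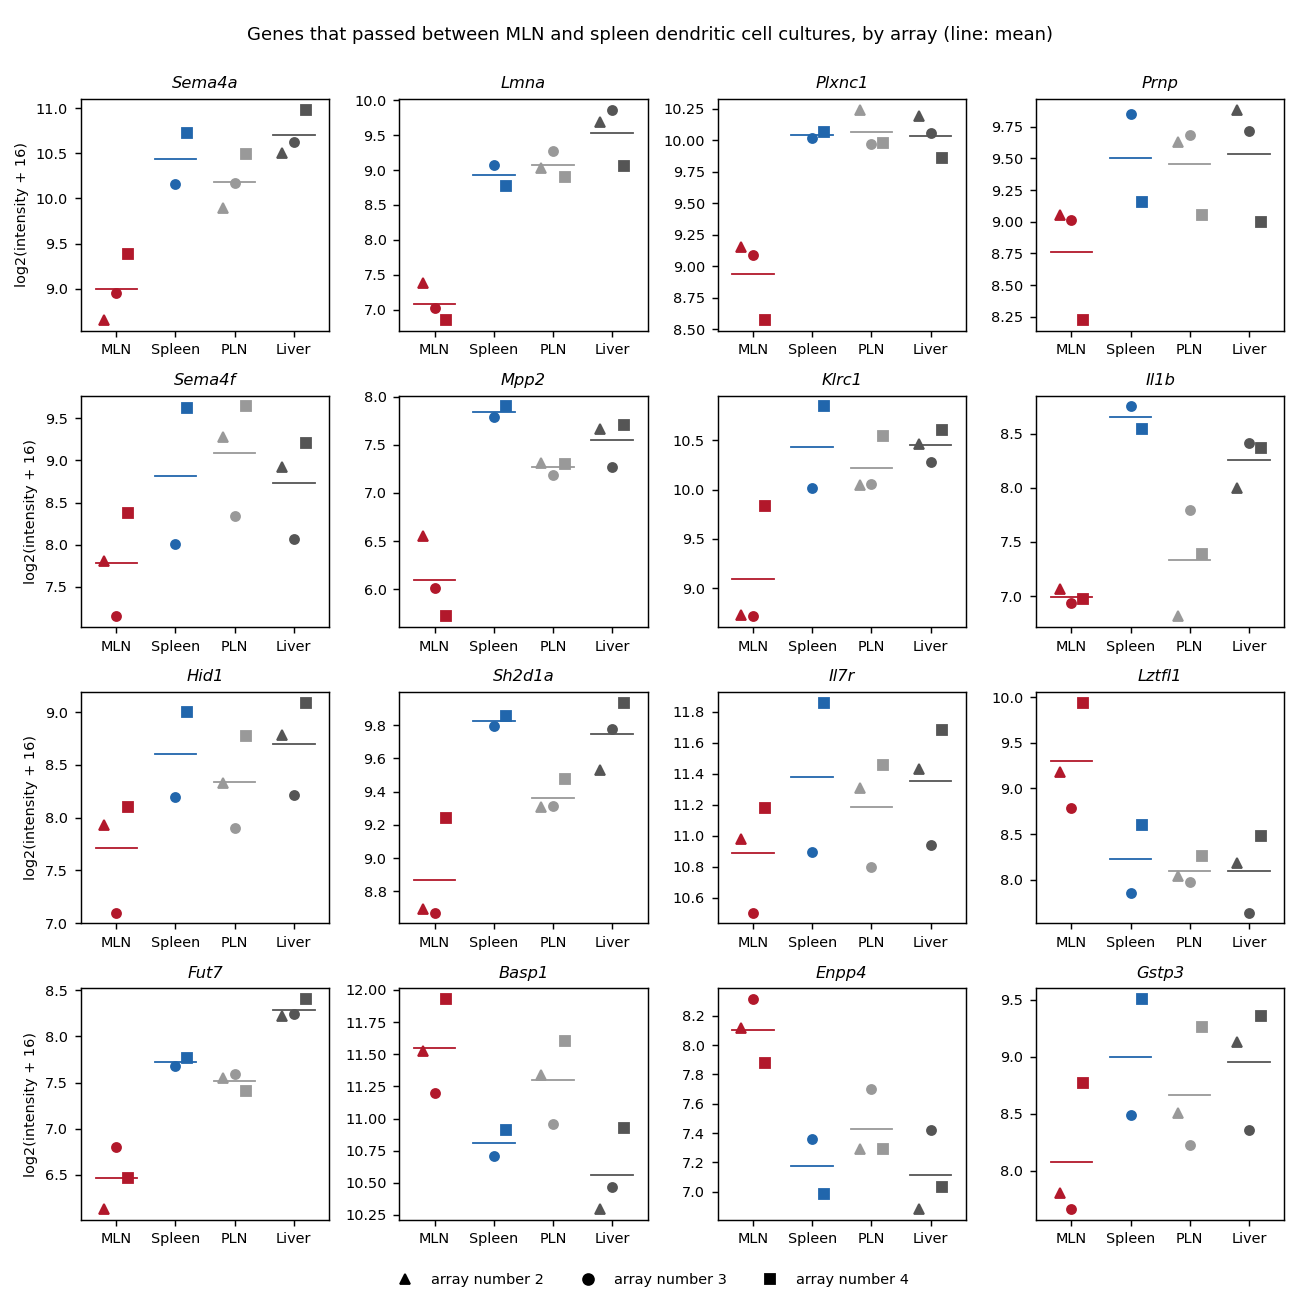
Normalized log2(intensity + 16) of the 16 genes that passed between MLN and spleen cultures, 1 panel per gene with its own axis range, with 1 point per array, the shape giving the array number and the line the mean of the organ. Numbers 3 and 4 differ in level for some genes, such as Sema4f and Hid1, while MLN lies on 1 side of spleen within each number in all 16 panels.

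In MLN cultures 3 genes of the semaphorin system fell. Sema4a, a membrane semaphorin that costimulates T cells, had intensities of 387.2, 474.6 and 642.2 on MLN arrays 2, 3 and 4, against 1151.5 and 1659.1 on spleen arrays 3 and 4. Every MLN array lay below every spleen array, and below the PLN arrays (925.4 to 1400) and the liver arrays (1426.8 to 2052.3) as well. Sema4a fell by 1.30 (SE 0.0957) on the log2 scale, a 2.47-fold difference, with adjusted p = 9.16e-05, and the difference was -1.21 within number 3 and -1.34 within number 4. Plxnc1, the receptor of the semaphorin Sema7a, read 551.1, 522.3 and 350.4 in MLN cultures and 1037.3 and 1060.2 in spleen cultures. It fell by 1.19 (SE 0.122, adjusted p = 0.00125), again without overlap. Sema4f, another membrane semaphorin, read 205.2, 126.6 and 301.7 in MLN cultures and 249.3 and 774.7 in spleen cultures. Its groups overlap, number 4 running above number 3 in both organs, and within the numbers it differed by -0.86 and -1.24; it fell by 1.10 (SE 0.134, adjusted p = 0.00391).

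The whole list of semaphorins, plexins and neuropilins had 12 tested members out of 16 measured. Of these, 3 passed and all 3 were lower, 0.175% being the share of all tested genes that passed as lower. This list and the later ones were chosen with earlier results of these data known, so such counts describe the members and are no test. The fitted difference was below 0 for 10 of the 12, with a median of -0.35, against a median of -0.01 over all tested genes. Outside the 3 that passed, the co-receptor Nrp1 had a difference of -0.47, and Sema4d, an abundant semaphorin of resting T cells, one of -0.10. Sema4b, at 0.39, and Sema7a, the ligand of Plxnc1, at 0.05 were the members above 0. Without spleen array 4 these were -0.07 and -0.27, Sema7a was also below 0 without the block, and Sema4d was 0.12 after median centring. The median of the list was below 0 under all 23 alternative settings.

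Lmna, which encodes the A-type lamins that stiffen the nucleus and is raised in activated and effector T cells, showed the widest difference among the genes that passed. Its intensities were 149.3, 116 and 86 on the MLN arrays and 532.3 and 432.8 on the spleen arrays. All 3 MLN arrays were also below the PLN (465.8 to 605.5) and liver arrays (513.1 to 917.3). Lmna fell by 1.91 (SE 0.161, adjusted p = 2.15e-04), a 3.75-fold difference, and by nearly the same amount within number 3 (-2.05) and number 4 (-1.93). Of the 8 genes of the lamina and its partners, it alone passed. Sun2, which ties the lamina to the cytoskeleton, had a difference of -0.43 (adjusted p = 0.0763) and Emd, encoding emerin, one of -0.32 (0.248), while the B-type lamins Lmnb1 and Lmnb2 had differences of -0.06 (0.10 after median centring) and 0.21. The median of these 8 genes was -0.07 and turned positive after median centring and under some other settings.

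The stretch of DNA just before the start of a gene is where its general promoter lies. Sema4a, Lmna and Plxnc1 passed with any 1 of the 11 arrays left out, and the 250 bases before their starts are shown for that reason, 5′ to 3′ on the minus strand that carries each gene. All sequences are those of RefSeq on GRCm38.p6, which held a window for 14 of the 16 genes that passed. Where a gene has several starts, the window before the most upstream one is printed. The windows lie at chr3:88461183-88461432 for Sema4a, chr3:88503353-88503602 for Lmna and chr10:94944846-94945095 for Plxnc1.
Sema4a: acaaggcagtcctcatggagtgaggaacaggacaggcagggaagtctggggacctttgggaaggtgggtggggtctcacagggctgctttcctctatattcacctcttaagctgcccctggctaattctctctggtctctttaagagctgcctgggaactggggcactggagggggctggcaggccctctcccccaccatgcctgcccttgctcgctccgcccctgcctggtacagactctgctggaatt
Lmna: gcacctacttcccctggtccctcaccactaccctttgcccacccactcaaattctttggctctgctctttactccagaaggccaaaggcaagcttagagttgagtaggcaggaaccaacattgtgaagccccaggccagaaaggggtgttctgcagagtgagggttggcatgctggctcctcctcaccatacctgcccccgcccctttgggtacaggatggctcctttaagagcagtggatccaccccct
Plxnc1: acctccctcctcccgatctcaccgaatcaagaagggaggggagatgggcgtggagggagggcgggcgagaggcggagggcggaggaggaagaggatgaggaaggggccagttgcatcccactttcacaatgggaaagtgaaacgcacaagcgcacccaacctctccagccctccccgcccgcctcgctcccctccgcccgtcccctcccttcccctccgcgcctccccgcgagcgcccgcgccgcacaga
These 3 windows were searched on both strands for the retinoic acid receptor half-site AGGTCA and for its close variants, of which the first searched was GGGTCA, the next was AGTTCA and the last was GGTTCA, and none held one. Taking the most upstream start of each of the 14 genes with a window, a half-site was found before 2 (14.3%), Enpp4 and Il7r. Of the windows before 32851 RefSeq starts, 38.6% held one. In this and the other shares of windows and genes with half-sites, 1 chromosome was left out. The count depends on the start taken: before another listed start a half-site was also found for Sema4a (1 of its 4 starts) and for Fut7, Lmna and Mpp2 (1 of 2 starts each). Over all listed starts 6 of the 14 genes (42.9%) held one, beside 41.8% of the 27025 genes counted. A direct repeat of half-sites 1, 2 or 5 bases apart on 1 strand was found before 0 of the 14, against 0.164%, 0.174% and 0.0883% of the windows counted. These are matches of letters in a short window and describe no binding.

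Among selectin ligand enzymes only Fut7 passed. Fut7 encodes the fucosyltransferase that finishes the sugar recognised by selectins, and its intensities were 53.2, 96.5 and 60.7 in MLN cultures and 196 and 215.2 in spleen cultures. The groups did not overlap, and MLN lay below all PLN (163.4 to 170.8) and liver arrays (290.3 to 314.3). Fut7 fell by 1.20 (SE 0.193, adjusted p = 0.0267), by 0.88 within number 3 and by 1.30 within number 4. The list of selectin ligand genes had 11 tested members, 5 above 0 and 6 below, with a median of -0.11 that turned positive after median centring. Gcnt1, which builds the branch that Fut7 decorates, had a difference of -0.25 (adjusted p = 0.581), and B4galt1, a galactosyltransferase of the same chain, one of -0.37 (0.157). Gcnt2, which makes branches of another kind, had a difference of 1.0 (adjusted p = 0.107), with no overlap of the arrays. This difference ran from 0.53 to 1.47 with 1 array left out.

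Klrc1, Sh2d1a and Il7r, which are expressed by lymphocytes, also fell. Klrc1 encodes NKG2A, an inhibitory receptor of killer cells. It read 407.9, 401.1 and 901.1 on the MLN arrays and 1042.1 and 1801.9 on the spleen arrays, did not overlap, and fell by 1.26 (SE 0.17, adjusted p = 0.00809). Sh2d1a, the adaptor SAP that transmits signals of SLAM receptors, read 401.5, 390 and 581 in MLN cultures against 889.1 and 906.4 in spleen cultures. It fell by 0.88 (SE 0.124, adjusted p = 0.01), with MLN below all other arrays. Il7r, the receptor for the survival cytokine IL-7, was abundant in both, at 1985.6, 1438.4 and 2343.3 in MLN and 1883.2 and 3609.8 in spleen cultures. Its groups overlap, but within each number MLN was lower (-0.39 and -0.68), and it fell by 0.54 (SE 0.0832, adjusted p = 0.0209). This call was lost after median centring (adjusted p = 0.192), with a random block (0.213) and with no variance trend (0.111).

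Klrd1 and Klrk1, receptors that pair with or resemble NKG2A, had differences of the same sign without passing. Klrd1, which encodes CD94 and pairs with NKG2A, had a difference of -0.43 (adjusted p = 0.295). Klrk1, encoding the activating receptor NKG2D, had intensities of 842.6, 702.7 and 939.7 against 963.8 and 1659.9. Its difference was -0.71 (adjusted p = 0.0679), and -0.98 to -0.45 with 1 array left out. Cd244a, a SLAM-family receptor of killer cells, ran the other way at 0.71 (0.0761). The list of killer lectin and NK-associated receptors had 9 tested members, 5 above 0 and 4 below, and its median of 0.11, of opposite sign to the difference of Klrc1, turned negative without the block and under some other settings. Slamf6, another SLAM receptor, had a difference of -0.63 (adjusted p = 0.0721), and of -0.90 to -0.35 with 1 array left out. The inhibitory receptor Pdcd1 had one of -0.82 (0.119), and in both genes the MLN arrays lay below the spleen arrays. Their list, of inhibitory and costimulatory receptors, had 19 tested members, 10 above 0 and 9 below, and 0 passed. Its median of 0.01 kept its sign under 7 of the 23 alternative settings.

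Il1b encodes interleukin-1β, a cytokine made mainly by macrophages, monocytes and dendritic cells. Its intensities on the MLN arrays were 117.4, 108.6 and 96.2, and on the spleen arrays 424.2 and 369. Il1b fell by 1.54 (SE 0.209, adjusted p = 0.00809), with differences of -1.82 within number 3 and -1.58 within number 4. Against other organs, MLN was close to PLN (91 to 200.9), and liver (246.5 to 330.6) lay nearer to spleen. Macrophage and monocyte markers with differences of the same sign stood beside it, none of them passing. Cd14, a lipopolysaccharide co-receptor, read 93.3, 77.4 and 21.9 against 237.9 and 198.5, a difference of -1.63 (adjusted p = 0.0645, and 0.05 without MLN array 2). Lyz2, lysozyme, read 105.7, 119.1 and 54 against 221.4 and 140.9, a difference of -0.72 (adjusted p = 0.21).

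Of the 18 measured macrophage, monocyte and Kupffer cell markers, 7 were abundant enough to test. Their differences were below 0 for 5 of the 7, with a median of -0.45 that was below 0 under all 23 alternative settings. The summed intensity of the 18 ran from 5293.6 to 6252.9 on the MLN arrays and from 6718.9 to 7066.7 on the spleen arrays, without overlap. Ctss, a bright member, weighed heavily in this sum, at 1912.5, 2556.7 and 1861.7 against 3076 and 2494.4. Its difference of -0.45 (adjusted p = 0.13) was itself the median of the 7. The defining macrophage gene Adgre1 was low on all 11 arrays, between 59.9 and 138.3, and 10 of the 18 markers never reached an intensity of 100. A further 3 myeloid receptor genes, chosen after their values were seen, had differences of the same sign without passing: Clec4n, Clec7a and Fpr2 had differences of -1.29, -1.12 and -1.03 (adjusted p = 0.0589, 0.0711 and 0.0721; Clec4n had 0.0263 without liver array 4). The 11 neutrophil markers summed to 269.9 to 480.6 in MLN cultures and 728 to 769.8 in spleen cultures, with S100a8 and S100a9 under 100 on every array. This is a sum of dim values: 7 of the 11 never reached 100, and 1 was abundant enough to test. The part of such cells in the difference of Il1b was not tested.

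The other 4 genes that fell have no common role. Mpp2, a scaffold protein of the membrane-associated guanylate kinase family, was dim in MLN cultures (76.2, 49.7 and 30.6) and brighter in spleen cultures (212.5 and 236.7). Mpp2 fell by 1.85 (SE 0.227, adjusted p = 0.00391), a 3.62-fold difference, with MLN below all other arrays. Prnp, the cellular prion protein, which T cells raise on activation, read 516.1, 493.9 and 269.1 against 920.7 and 565.9 and fell by 0.88 (SE 0.104, adjusted p = 0.00391). Hid1, a gene of the secretory pathway, read 224.2, 122.5 and 246.4 against 286.1 and 507.2 and fell by 0.94 (SE 0.129, adjusted p = 0.00862). Gstp3, a glutathione transferase, read 205, 186.1 and 409.1 against 352.8 and 715.2 and fell by 0.88 (SE 0.154, adjusted p = 0.0471). Of these 4 genes, Gstp3 is the one whose groups overlap.

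The genes that rose in MLN cultures are Lztfl1, Basp1 and Enpp4. None of them passed when the fit with the block held only arrays numbered 3 and 4. Lztfl1 encodes a protein that controls entry of membrane proteins into cilia and is known to be induced by retinoic acid in T cells. Its intensities were 559.6, 423.3 and 970.2 on the MLN arrays and 223.6 and 382.4 on the spleen arrays. MLN lay above all 8 other arrays, and Lztfl1 rose by 1.09 (SE 0.171, adjusted p = 0.0232), a 2.12-fold difference. Basp1, a membrane-bound signalling protein, read 2923.4, 2372.7 and 3993.8 in MLN cultures and 1665.8 and 1866.9 in spleen cultures. Basp1 rose by 0.79 (SE 0.129, adjusted p = 0.0295). Enpp4, an ecto-enzyme that splits nucleotides outside the cell, read 257.6, 301 and 205.2 against 154 and 125.2, above all other arrays, and rose by 0.99 (SE 0.164, adjusted p = 0.0295).

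Several calls rested on single arrays. Leaving out spleen array 3 or spleen array 4 leaves 1 spleen array, on which the spleen level of that fit then rests. Sema4a, Lmna and Plxnc1 passed whichever 1 of the 11 arrays was left out. Without spleen array 4, adjusted p was 0.0501 for Prnp, 0.0609 for Mpp2, 0.0644 for Sema4f and 0.0975 for Klrc1, which passed without any other array. Sh2d1a was lost without spleen array 3 (0.0771) or spleen array 4 (0.0501). Il1b and Hid1 were lost without MLN array 4 (0.0591 in both), spleen array 3 (0.058 and 0.0609) or spleen array 4 (0.0699 and 0.0644). Il7r had adjusted p = 0.058 without MLN array 2, 0.118 without MLN array 4 and 0.203 without spleen array 4. Lztfl1 had 0.0501 without liver array 4, 0.118 without MLN array 4, 0.0771 without spleen array 3 and 0.157 without spleen array 4. Basp1 had 0.0545 to 0.23 without liver array 4, MLN array 2, MLN array 4, PLN array 4 or spleen array 4. Fut7 had 0.0509 to 0.208 without liver array 2, liver array 4, MLN array 2, MLN array 4, spleen array 3 or spleen array 4. Enpp4 was kept only without liver array 2 or PLN array 4 (0.0531 to 0.152 otherwise), and Gstp3 only without liver array 2 (0.0611 to 0.208 otherwise). With a random block Basp1, Hid1 and Prnp (0.0553 each), Sema4f (0.116) and Gstp3 (0.156) were lost beside Il7r. With no variance trend Sh2d1a (0.0517), Klrc1 (0.0704), Lztfl1 (0.0774), Gstp3 (0.109) and Basp1 (0.146) were lost beside it. With no filter on low values 7 were lost, at 0.0519 for Il7r, 0.0521 for Il1b and 0.12 to 0.143 for Lztfl1, Basp1, Enpp4, Fut7 and Gstp3. Restricting the fit to arrays numbered 3 and 4 lost Gstp3 (0.0563), Sh2d1a (0.0637) and Basp1 (0.0655). It also lost Lztfl1 (0.074), Fut7 (0.0935), Il7r (0.0958) and Enpp4 (0.115). Fut7 was lost as well in the fit of only the MLN and spleen arrays (0.109).

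Other probe sets of the same genes gave a second reading. Of the 16 genes, 7 had further probe sets, 11 in all, of which 10 differed in the same direction. Plxnc1 had 3 further probe sets at -0.74, -0.92 and -0.60, Sema4a 1 at -1.07, Il7r 1 at -0.55, Klrc1 1 at -0.72 and Lztfl1 1 at 0.73. The second probe set of Prnp gave -0.27. For Lmna the 3 dimmer probe sets gave -0.67, -0.16 and 0.28, so both the size and the direction of its difference differ between probe sets. The last of these had 1.07 within number 3 and -0.71 within number 4. With the mean of a gene's probe sets, adjusted p was 0.0829 for Prnp, 0.0722 for Klrc1 and 0.0666 for Lztfl1.

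**Figure D2:**
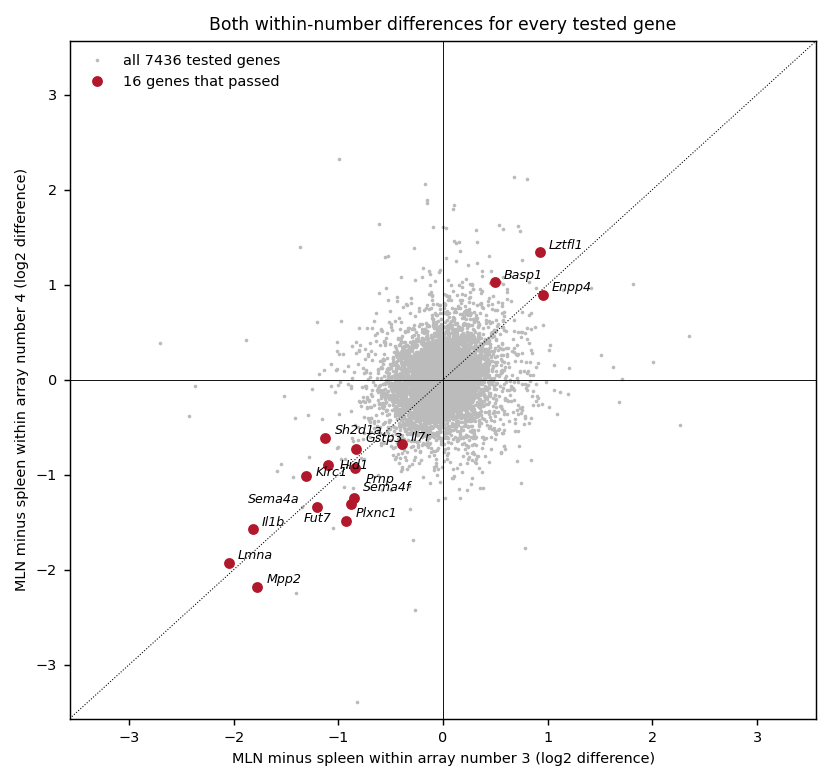
Difference of MLN minus spleen within array number 3 (x axis) against the same within array number 4 (y axis), in log2 units, for all 7436 tested genes in grey and the 16 that passed in red. The dotted line marks equal differences, and the 16 lie at the lower left and the upper right, near the line.

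Across all tested genes the differences within number 3 and within number 4 correlated weakly, with r = 0.192 across genes, which are not independent replicates and share the arrays. The plot of these differences shows many genes far from 0 within 1 number alone. Differences of more than 1 in both numbers were found for 9 lower genes (0.121% of those tested) and 1 higher gene (0.0134%). The 9 lower genes are Lmna, Mpp2, Il1b, Sema4a and Klrc1, which passed, and Cd14, Clec4n, Clec7a and Dglucy, which did not (Dglucy had adjusted p = 0.0589, and 0.0189 and 0.0413 without MLN array 2 and MLN array 3). The 1 higher gene is Itga4, the α4 chain of the gut-homing integrin.

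Itga4 had intensities of 190, 233.5 and 223.3 in MLN cultures and 60.3 and 123.7 in spleen cultures. All 3 MLN arrays lay above all arrays of the other organs (70.2 to 147.3 in PLN, 90.4 to 119.3 in liver). The fitted difference was 1.29 (SE 0.336), with 1.81 within number 3 and 1.01 within number 4, and it did not pass (adjusted p = 0.134). Its 2 dimmer probe sets gave 0.49 and 0.75. Itgb7, the β7 chain that pairs with it, was abundant in both, at 1506.6, 1939.3 and 4343.8 against 1547.1 and 2953.4. It had a difference of 0.24 (95% interval -0.09 to 0.56, adjusted p = 0.519). Itgae, the αE chain of the other β7 integrin, had a difference of -0.44 (adjusted p = 0.322).

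Ccr9, the small-intestine homing receptor, was too dim on average to be tested and was measured without a test. It had intensities of 106.3, 28 and 417.2 on MLN arrays 2, 3 and 4, against 44.7 and 76.7 on spleen arrays 3 and 4. It was thus highest on MLN array 4, while MLN array 3 lay below both spleen arrays. Of the 7 tested genes in the list of gut homing receptors and integrins 0 passed in limma, and 1 higher and 1 lower had an unadjusted p under 0.05, against 6.87% and 7.13% of all tested genes. These shares are the background for every later count at an unadjusted p under 0.05. The differences were above 0 for 5 and below for 2, with a median of 0.16 that was 0.05 without MLN array 3 and 0.07 without MLN array 4. Among receptors for other sites, Cxcr3, which guides cells to inflamed tissue, had a difference of -0.18 (adjusted p = 0.741), and Ccr4, shared by type 2 and skin-homing cells, one of 0.65 (0.167).

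**Figure D3:**
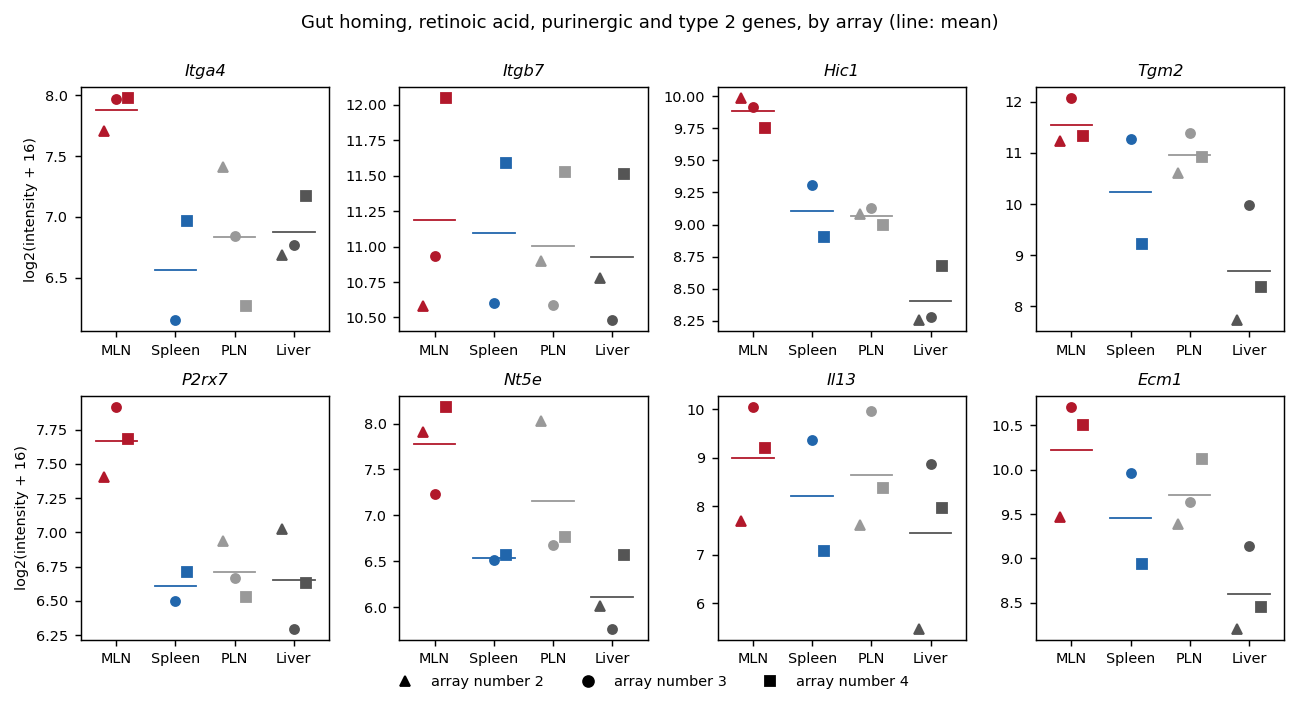
Normalized log2(intensity + 16) of gut homing (Itga4, Itgb7), retinoic acid (Hic1, Tgm2), purinergic (P2rx7, Nt5e) and type 2 genes (Il13, Ecm1), 1 point per array with the shape giving its number and the line the organ mean, each panel with its own axis range. MLN lies above all other organs for Itga4, Hic1 and P2rx7, and overlaps spleen for Itgb7, Tgm2, Il13 and Ecm1; none of the 8 passed.

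Within the list of retinoic acid receptors and targets, which holds neither Lztfl1 nor P2rx7, Hic1 and Tgm2 had the largest positive differences. Hic1, a repressor that T cells and other cells raise on exposure to retinoic acid, read 990.5, 936.6 and 846.9 in MLN cultures and 631.8 and 472.8 in spleen cultures. MLN lay above all other arrays, with a difference of 0.78 (SE 0.159, adjusted p = 0.0679, and 0.0243 without liver array 4). Tgm2, a transglutaminase and a classical target of retinoic acid, read 2382.1, 4290.1 and 2632.4 against 2424.9 and 590. The groups overlap, since spleen array 3 was as bright as MLN array 2, and the difference was 0.80 within number 3 and 2.12 within number 4. The fitted value for Tgm2 was 1.57 (SE 0.309, adjusted p = 0.0645, and 0.0458 and 0.0315 without MLN array 3 and PLN array 3). This value ran from 1.02 to 2.13 with 1 array left out, and the 5 further probe sets of Tgm2 gave 0.06 to 1.60. Rarg, a retinoic acid receptor gene, had the opposite sign, with 235.8, 165.3 and 195.1 against 347.7 and 392.3, a difference of -0.85 (adjusted p = 0.103, and 0.0233 without liver array 2).

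The list of retinoic acid receptors and targets had 8 tested members of 20 measured. Of these 0 passed (2 higher and 1 lower at an unadjusted p under 0.05), 4 were above 0 and 4 below, and the median of -0.03 changed sign between settings. Rarb, a receptor gene that retinoic acid induces in many cells, was too dim to be tested, at 21.5 to 28.6 on the MLN arrays and 26.6 and 36.7 on the spleen arrays. The windows of Enpp4, which rose, and of Hic1 each held 1 half-site of the retinoic acid receptor motif, shown in capitals below, where a match on the strand opposite to the gene appears as its reverse complement. They lie on the minus strand at chr17:44105810-44106059 and chr11:75170256-75170505, and neither held a direct repeat.
Enpp4: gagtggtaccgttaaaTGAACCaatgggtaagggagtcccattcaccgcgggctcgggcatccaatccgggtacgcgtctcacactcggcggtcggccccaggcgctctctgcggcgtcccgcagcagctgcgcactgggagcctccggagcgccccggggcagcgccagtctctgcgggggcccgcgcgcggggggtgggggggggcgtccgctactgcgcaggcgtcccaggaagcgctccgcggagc
Hic1: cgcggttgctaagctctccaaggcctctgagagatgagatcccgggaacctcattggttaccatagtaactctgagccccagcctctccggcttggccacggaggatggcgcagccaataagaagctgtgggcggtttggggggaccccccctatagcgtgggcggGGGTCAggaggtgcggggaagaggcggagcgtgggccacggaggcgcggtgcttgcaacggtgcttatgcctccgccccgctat
In Enpp4 the letters are GGTTCA on the opposite strand, and in Hic1 they are GGGTCA on the strand of the gene. The share of the windows counted with at least 1 half-site, 38.6%, makes a single match common.

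Enpp4 was the member that passed among genes that sense or break down extracellular nucleotides. Of 9 tested members 1 rose (0.0403% of all tested genes passed as higher), and 8 had differences above 0. At an unadjusted p under 0.05 there were 5 higher (6.87% of all tested genes) and 1 lower (7.13%), Adk. The median was 0.34, with 0.39 within number 3 and 0.53 within number 4, and was above 0 under all 23 settings. P2rx4, an ATP-gated channel, read 490.6, 430.5 and 423.3 against 244.6 and 308, a difference of 0.69 (adjusted p = 0.0589). P2rx7, the ATP receptor known to be raised by retinoic acid in T cells, read 151.2, 225 and 176.1 against 80 and 103.1, a difference of 1.0 (0.135). Nt5e, encoding CD73, which makes adenosine, read 221.5, 135.7 and 259.9 against 80.9 and 92.2, a difference of 1.08 (0.21). In these 3 genes the MLN arrays lay above the spleen arrays without overlap. Entpd1, encoding CD39, which acts before CD73, had a difference of 0.34 (0.213) with overlap, and Adk, the adenosine kinase, was the member below 0, at -0.34.

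Type 2 genes had a median of 0.55 (0.30 within number 3 and 0.84 within number 4), without 1 member passing. This was the highest median of the lists with at least 5 tested members, but it was 0.26 without spleen array 4, below the 0.35 of the purinergic list there, and 0.90 without spleen array 3. Of 12 tested members 9 were above 0 and 3 below, and 7 higher and 0 lower reached an unadjusted p under 0.05, against 6.87% and 7.13% of all tested genes. Il13, a cytokine of type 2 cells, read 190, 1028.9 and 563.5 against 656.7 and 132.8. Its groups overlap, and its level ran higher in number 3 than in number 4 in both organs, so that the fitted difference of 1.48 (SE 0.341, adjusted p = 0.0884) rests on the comparison within numbers (0.68 and 2.13). Ecm1, which type 2 cells need to leave lymph nodes, read 684.7, 1652.3 and 1459.2 against 1000.3 and 483.8, a difference of 1.02 (0.125, and 0.0363 without PLN array 3). Penk, an opioid precursor, had a difference of 0.73 (0.0721) that ran from 0.35 to 1.10 with 1 array left out. Il4ra, the IL-4 receptor, had a difference of 0.48 (0.141). Gata3, the master regulator of type 2 cells, had a difference of 0.16 (95% interval -0.30 to 0.62, adjusted p = 0.803). The cytokine genes Il4 and Il5 were too dim to be tested: Il4 read 101.9, 256.5 and 70.2 against 166 and 54.4, and Il5 read 134.5, 397.4 and 71 against 165.4 and 21.6. Within each number both were higher in MLN than in spleen.

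Type 1 genes gave no common direction. Of 22 tested members 0 passed (4 higher and 1 lower unadjusted), 14 were above 0 and 8 below, and the median was 0.08 (0.04 to 0.15 with 1 array left out). Il18r1, the receptor for IL-18, read 490.9, 426.9 and 1229.4 against 1301.6 and 2255.6, without overlap, and had a difference of -1.42 (SE 0.26, adjusted p = 0.0549). It passed without MLN array 4 (0.00149), PLN array 3 (0.0475) or PLN array 4 (0.0351). Csf2, encoding GM-CSF, had the opposite sign, with 271.1, 1159.9 and 325.3 against 529.5 and 182.3 and a difference of 0.95 (0.0549, and 0.029, 0.0404 and 0.0318 without liver array 3, MLN array 2 and PLN array 4). Ifng, the signature cytokine, had a difference of 0.67 (0.185). Tbx21, the master regulator of type 1 cells, had one of -0.05 (95% interval -0.49 to 0.39, adjusted p = 0.946). Among Th17 and follicular helper genes Sh2d1a was the 1 of 16 that passed, 0.175% being the share of all tested genes that passed as lower. Of the 16, 6 were above 0 and 10 below (1 higher and 5 lower unadjusted). Their median of -0.05 turned positive without the block and without MLN array 3. Il17a had a difference of -0.76 (0.0598), with 578, 1089.6 and 375.2 against 2375.4 and 601.7. Foxp3, the regulator of regulatory T cells, was too dim to be tested, at 31.5 to 140.6 on the MLN arrays and 56.7 to 160.3 on the spleen arrays, and 0 of 16 regulatory T cell genes passed (5 higher and 2 lower unadjusted), with a median of 0.09 that ran from 3.17e-04 without MLN array 4 to 0.20 without spleen array 3.

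Cytotoxic granule genes were abundant in both cultures. Gzma and Gzmb, the main granzymes, had intensities of 10346.9 to 17871.3 and of 11195.9 to 17101 over the 5 arrays, with differences of 0.24 (adjusted p = 0.182) and 0.11 (0.38). Perforin, Prf1, had a difference of 0.28 (0.314). Gzmg, a granzyme of strongly activated killer cells, varied most: 1210.9, 1602 and 9680.9 in MLN cultures and 309.6 and 6479.4 in spleen cultures. Number 4 was far brighter in both organs, and MLN was higher by 2.35 within number 3 and by 0.46 within number 4. The fitted difference was 1.43 (0.0645, and 0.0416 without MLN array 4), and ran from 0.71 to 2.15 with 1 array left out. Of 17 tested genes of the list 0 passed (6 higher and 0 lower unadjusted), against 6.87% and 7.13% of all tested genes, 14 were above 0 and 3 below, and the median was 0.19 but 0.01 without the block.

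Genes of cytokine signalling, growth and stress gave 1 passing gene, Il7r. Of 19 receptors of the IL-2 family and their feedback genes, it alone passed, and 13 were above 0, with a median of 0.11 that turned negative without spleen array 4. Il7r is also 1 of 12 tested genes of lymph node homing and quiescence, of which 10 were below 0, with a median of -0.09 that turned positive after median centring; S1pr1, which lets T cells leave the node, had a difference of -0.50 (adjusted p = 0.119). Pim1, a kinase induced by such cytokines, read 4486.4, 3881.7 and 3998.8 against 3072.1 and 2920.2, a difference of 0.36 (adjusted p = 0.0679). The survival gene Bcl2 had a difference of 0.72 (0.21). Myc, which drives growth, had one of 0.54 (0.0721) that ran from 0.31 to 0.77 with 1 array left out. Of 25 genes of the unfolded protein and amino acid response 0 passed (7 higher and 0 lower unadjusted), 18 were above 0 and the median was 0.09, with 0.02 without spleen array 4 and 0.22 without spleen array 3. Pdia6, a folding enzyme, had a difference of 0.40 (0.0585, and 0.0453 without liver array 2), and Hspa5, the chaperone BiP, one of 0.36 (0.135). Of 23 genes of glycolysis 0 passed (6 higher and 1 lower unadjusted), 17 were above 0 and the median was 0.06 (0.03 to 0.12 with 1 array left out), with Hk2, the inducible hexokinase, at 0.39 (0.10).

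**Figure D4:**
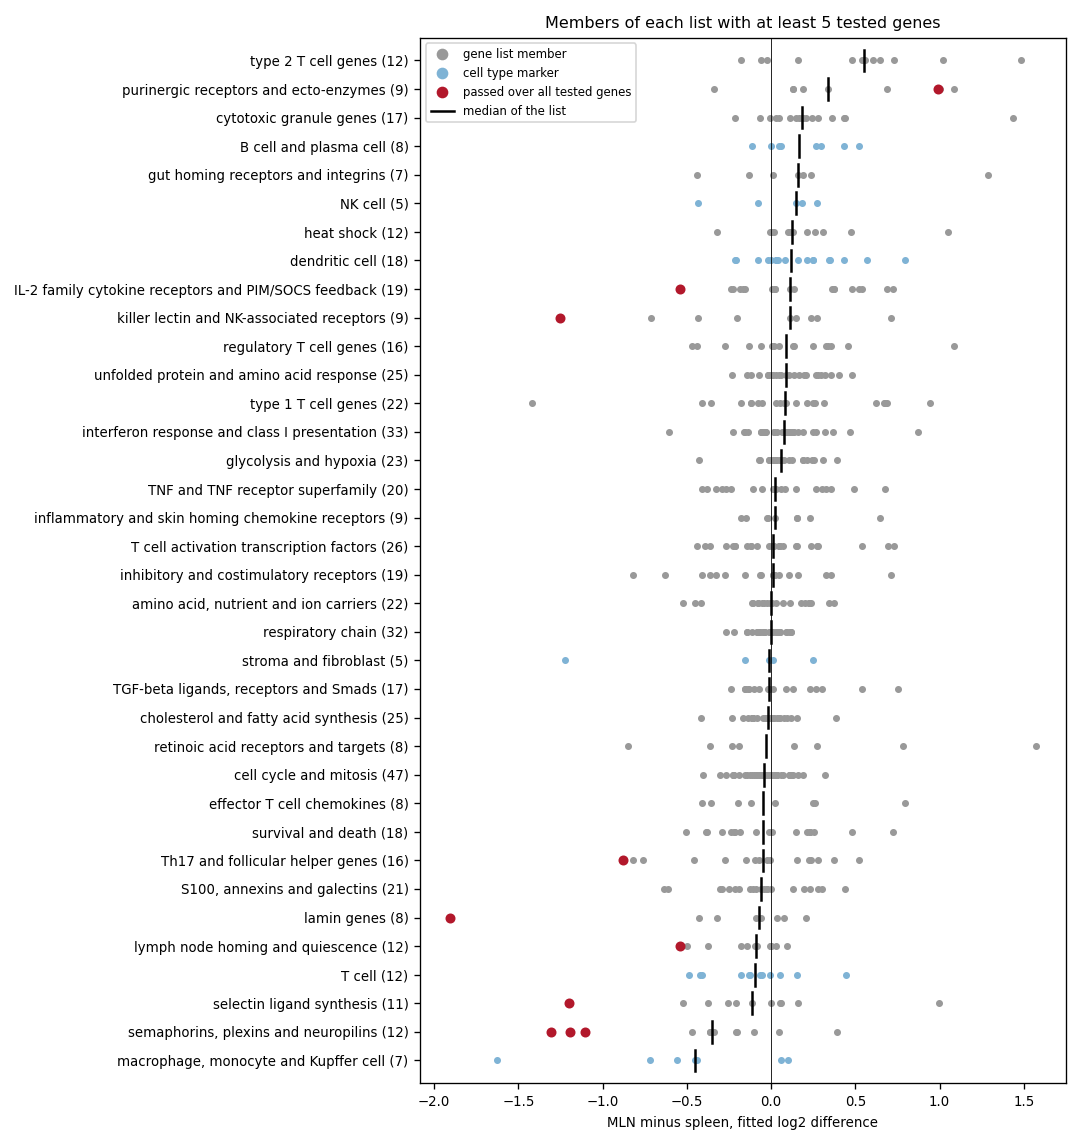
Fitted log2 differences of MLN minus spleen for each member of the 36 lists with at least 5 tested genes, ordered by median (black bar), with the number of tested members in brackets, genes that passed in red and cell type markers in blue. Type 2 and purinergic genes stand at the top with medians of 0.55 and 0.34 (0.26 and 0.35 without spleen array 4), and semaphorin genes and macrophage markers at the bottom with -0.35 and -0.45; medians near 0 changed sign between settings.

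Cell division genes, interferon genes and T cell markers gave no passing gene. Of 47 cell cycle genes 0 passed (2 higher and 4 lower unadjusted), 17 were above 0 and 30 below, and the median of -0.04 turned positive after median centring and without spleen array 4. Of 33 interferon response genes 0 passed (3 higher and 2 lower unadjusted), and the median of 0.07 turned negative without the block. Isg20, an antiviral nuclease, had a difference of 0.87 (adjusted p = 0.0679, and 0.0399 without MLN array 3). This difference ran from 0.48 to 1.26 with 1 array left out. Of 12 T cell markers 0 passed (1 higher and 3 lower unadjusted), 3 were above 0 and 9 below, and the median of -0.10 turned positive, to 0.11, after median centring. Cd2, an adhesion receptor of T cells, read 1660.2, 1630.9 and 1587.5 against 2541.6 and 1975.8, a difference of -0.49 (0.0711), and the co-receptor Cd4 had one of -0.42 (0.10). A second, dimmer probe set of Cd4 had the opposite sign, at 0.25 (0.38 within number 3 and 0.30 within number 4), so its direction differs between probe sets. The summed intensity of the T cell markers ran from 29481.6 to 37740.4 in MLN and from 30384 to 35202.2 in spleen cultures, with full overlap.

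Dendritic cell markers gave no passing gene. Of 18 tested (3 higher and 0 lower unadjusted), 13 were above 0 and 5 below, with a median of 0.12 that was 0.03 without MLN array 3 and 0.21 without MLN array 4, and the summed intensity of the 23 measured markers ran from 15299.1 to 23039 in MLN and from 12706.4 to 23872.8 in spleen cultures. In both organs number 3 was brighter than number 4. Of 8 tested B cell and plasma cell markers 6 were above 0, with a median of 0.16 (0.04 without MLN array 3 and 0.30 without spleen array 4). The summed intensity of the 16 measured, 12292.3 to 14027.5 in MLN, lay above that in spleen, 9948.7 to 11994.3. Of the 16, 5 never reached an intensity of 100. The defining B cell genes Cd79a (141.9 to 182.1 in MLN, 105.8 and 166.1 in spleen) and Ms4a1 (86.1 to 162.2, 138.9 and 154.8) were dim and overlapped. Cd79b was dim as well, without overlap (240.6 to 341.7, 168.7 and 230.5). Epcam, an epithelial gene that is also found on some dendritic and T cells, had a difference of 1.09 (adjusted p = 0.0984), and Pdpn, podoplanin, one of -1.22 (0.0589); neither pair of groups overlapped. The NK cell gene Ncr1 and the hepatocyte gene Alb stayed under 100 on every array. The part of other cell types in the gene differences was not tested.

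No gene passed between spleen cultures and either PLN or liver cultures. Since the MLN arrays cancel, the test of spleen against PLN is also the test of whether the MLN difference from spleen differs from that from PLN. In this test 0 of 7436 passed (0%; 603, or 8.11%, had an unadjusted p below 0.05). Without the block 0 passed as well (115 unadjusted, 1.55%), as with a random block, and the smallest adjusted p was 0.248, for Pdcd4. Spleen against liver gave 0 as well (0%; 643 unadjusted, 8.65%), also without the block (131 unadjusted, 1.76%) and with a random block, and the smallest adjusted p was 0.134, for Il17a. Leaving out 1 array gave 3 genes without spleen array 3 and 5 without spleen array 4 against PLN. Against liver it gave 1 gene without liver array 3, 1 without spleen array 3 and 6 without spleen array 4. A count of 0 does not show that these cultures were alike.

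For the 16 genes that passed between MLN and spleen, spleen minus PLN ran from -0.53 for Basp1 to 1.20 for Il1b, with adjusted p of 0.248 or more. Spleen minus liver ran from -0.63 for Fut7 to 0.40 for Mpp2, with adjusted p of 0.444 or more. Lmna had mean log2 levels of 7.09 ± 0.27 in MLN (SD, n = 3) and 8.93 ± 0.21 in spleen (SD, n = 2), beside 9.07 ± 0.19 in PLN and 9.54 ± 0.42 in liver (SD, n = 3 each). Il1b had 6.99 ± 0.07 in MLN and 8.65 ± 0.15 in spleen, beside 7.33 ± 0.50 in PLN and 8.26 ± 0.23 in liver. For Lmna spleen thus stood with PLN and liver, while for Il1b PLN stood nearer to MLN, and spleen against PLN did not pass for either gene.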

How the data were processed

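Total RNA of T cells was measured on 11 single-colour mouse arrays of 22690 probe sets. The authors deposited 1 linear intensity per probe set and array, already scaled: the 2% trimmed mean was 500.2 on every array. The software is not given in the sources used here. Control probe sets (64) were left out, and the annotation gave 1 gene symbol for 20393 probe sets. Intensities were transformed as log2(intensity + 16) and quantile normalized. The probe set with the highest mean stood for each of 12393 genes, and the upper 60% by mean (7436 genes, above an intensity of 104.7) were tested.

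All 11 arrays entered 1 limma fit (limma 3.58.1, R 4.3.3; lmFit and eBayes with a variance trend) with 4 organ means and the replicate number as a block, leaving 5 residual degrees of freedom, with Benjamini-Hochberg adjustment at 0.05. MLN array 2 has no spleen partner and is tied in through liver and PLN arrays of its number. Arrays of the same number resembled each other: after organ means were removed, 15 pairs of the same number from different organs correlated at 0.412 to 0.731. The 30 pairs of different numbers, at -0.708 to 0.0841, are no separate evidence, since removing the organ mean ties them to the others. MLN array 3, for example, correlated at 0.631 with spleen array 3 and so at -0.631 with spleen array 4.

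Named genes are up to 15 per direction with the largest differences among those passing, filled to 10 by smallest p, up to 3 per list by smallest p, and a fixed set of homing, cytokine, lineage and retinoic acid genes. The comparison and the 30 gene lists and 14 marker lists were chosen with earlier results of these data known. The number of arrays limits the precision.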

Additional observations from a re-analysis of the deposited data

How the results depend on the processing

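The 23 alternative settings leave out each of the 11 arrays in turn or change 1 step. Fits without spleen array 3 or without spleen array 4 hold 1 spleen array. The number of genes passing between MLN and spleen was 16, and 0 without the replicate block. It was 10 (0 higher) with the block and only arrays numbered 3 and 4, of which 9 were among the 16. With the block and only the 5 MLN and spleen arrays it was 64 (35 higher), 15 of them among the 16, from 1 residual degree of freedom. Median centring gave 51 (31 higher and 20 lower) and moved the median of all genes from -0.01 to 0.09. No filter gave 9, and the upper 40% of genes gave 9. Leaving out 1 array gave 8 to 34; 8 genes of the 16 remained without MLN array 4, 9 without spleen array 3 and 3 without spleen array 4. The count stayed within 1.5 times the 16 for a random block (14), deposited intensities (24), pseudocounts of 1 (16) and 64 (18), the mean of probe sets (16) and no variance trend (11). For spleen against PLN, leaving out 1 array gave 0 to 5, and for spleen against liver 0 to 6, with 0 as the count in the full fit. Of the 146 genes of the naming rule, 25 changed direction under at least 1 setting, 6 of them without the block. Of the 100 tested genes whose fitted differences the text discusses, 7 did. Prf1 was -0.14 and Sema7a -0.0858 without the block. Sema7a was -0.132 with the block and only numbers 3 and 4, or only MLN and spleen arrays, -0.0382 with the mean of probe sets, and ran from -0.271 to 0.364 with 1 array left out. Sema4d was 0.120 after median centring and 8.15e-04 with the mean of probe sets. Lmnb1 was 0.104 after median centring and ran from -0.129 to 0.0132 with 1 array left out, and Sema4b from -0.0725 to 0.855. Gata3 ran from -0.0355 (without MLN array 3) to 0.289 with 1 array left out. Tbx21 was 0.0490 with the block and only numbers 3 and 4, or only MLN and spleen arrays, and 0.0511 after median centring, and ran from -0.211 to 0.0745 with 1 array left out. Of the 84 of these 100 that did not pass, 19 passed with 1 array left out, 27 with only the MLN and spleen arrays, 21 after median centring and 0 without the block. The cause of these changes was not tested. Dim genes are measured least well: 12.9% to 16.5% of probe sets lay below the added 16.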
